A study of Mus musculus with 10 samples.

Results

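Fc receptors bind the constant part of antibodies. The 9 genes described here are Fcer1g, Fcgr1, Fcgr2b, Fcgr3, Fcgr4, Fcer1a, Fcer2a, Fcgrt and Pigr. Fcer1g encodes a signalling chain that several of these receptors share, and the others encode antibody-binding receptors. All were taken by gene name from all probes of the arrays, and they are 9 of 27670 genes on the array. The study compared the lungs of smoke-exposed and room air-exposed mice, all of them BALB/c females. The animals were 6 to 8 weeks old when purchased. Smoke was drawn from 12 unfiltered cigarettes and reached the whole body; a session lasted 50 minutes, and there were 2 on each of 5 days in every week. Both groups were followed for 8 weeks, the controls breathing room air. Each group held 5 lungs, each hybridised to an array of its own together with a common reference RNA.

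Most Fc receptors of myeloid cells that activate the cell carry no signalling part of their own and depend on a shared gamma chain, encoded by Fcer1g, whose phosphorylated tail recruits the kinase Syk. Fcgr2b encodes the inhibitory IgG receptor, which recruits phosphatases and opposes the activating receptors on the same cell. The neonatal Fc receptor (Fcgrt) protects and transports IgG, and the polymeric immunoglobulin receptor (Pigr) carries dimeric IgA across airway epithelium into the lumen.

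Every value below is the log2 ratio of lung RNA over reference RNA on one array, and a difference is the mean of the smoke lungs minus the mean of the room air lungs. With smoke, 7 of the 9 genes were higher and 1 was lower at an adjusted p under 0.05 in the limma fit over all probes. Of all 27669 genes tested by their brightest probe, 8.23% passed that threshold in either direction, 4.96% higher and 3.27% lower. The members passing with more than a 2-fold rise were Fcer1g, Fcgr2b, Fcgr3 and Pigr, 4 of 9, against 0.625% of all genes. In 4 members every smoke lung lay above every room air lung, as in 4.62% of all genes, and in 1 member every smoke lung lay below, as in 3.27% of all genes. The median difference of the 9 members was 0.71, and that of all genes was -0.0042. The members' median depended on the processing, at 0.56 with the scanner software's ratio and 1.36 with the red channel's processed signal. With the scanner software's ratio 4 members passed, and with each setting of the red channel alone 5 did, all of them higher. When 1 array at a time was left out, 6 to 8 members passed, and the calls of Fcgr1 and Fcer1a were those that were lost. In the main fit, 12 of the 14 member probes passed, against 7.06% of all probes.

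All 14 probes were well above background in the lung channel on all 10 arrays, and none was saturated. The share of spots well above background in that channel ranged from 67.8% to 76.7% in room air and from 64.9% to 77.5% in smoke. Precision is limited by the 5 arrays per group. The lung markers Sftpc, Scgb1a1 and Ager had mean log2 ratios of 5.77 ± 0.34, 6.60 ± 0.33 and 4.86 ± 0.29 (SD, n = 10) of red over green. The Y-linked genes Ddx3y and Eif2s3y had ratios of -2.23 ± 0.41 and -1.98 ± 0.38 (SD, n = 10), and red was read as the channel of the female lungs. Each direction rests on the assignment of the scanner files to the samples: in the deposited table of processed values, 286449 of 286449 values equalled, within 0.0001, the array of the same number in the other group, and 286 equalled the array of the same name.

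Room air replicate 1 stood apart from the other room air lungs. It was the highest room air lung in 8 of the 9 members and the lowest for Fcgrt. The mean log2 ratio over 9 neutrophil markers was 2.55 in this lung and 1.53, 1.61, 1.38 and 1.66 in room air replicates 2 to 5, and 2.10, 1.83, 1.98, 1.66 and 1.79 in the smoke lungs. Of these markers, Elane was well above background on 0 arrays and Ngp on 1. The mean over 4 monocyte markers was 1.88 in this lung, 1.15, 1.36, 0.97 and 1.29 in the other room air lungs and 1.71, 1.67, 2.10, 1.52 and 1.66 in smoke, so that here too it lay apart from its group. The part of these markers in the member values was not tested, and each member's difference is also given without this lung.

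**Figure D1:**
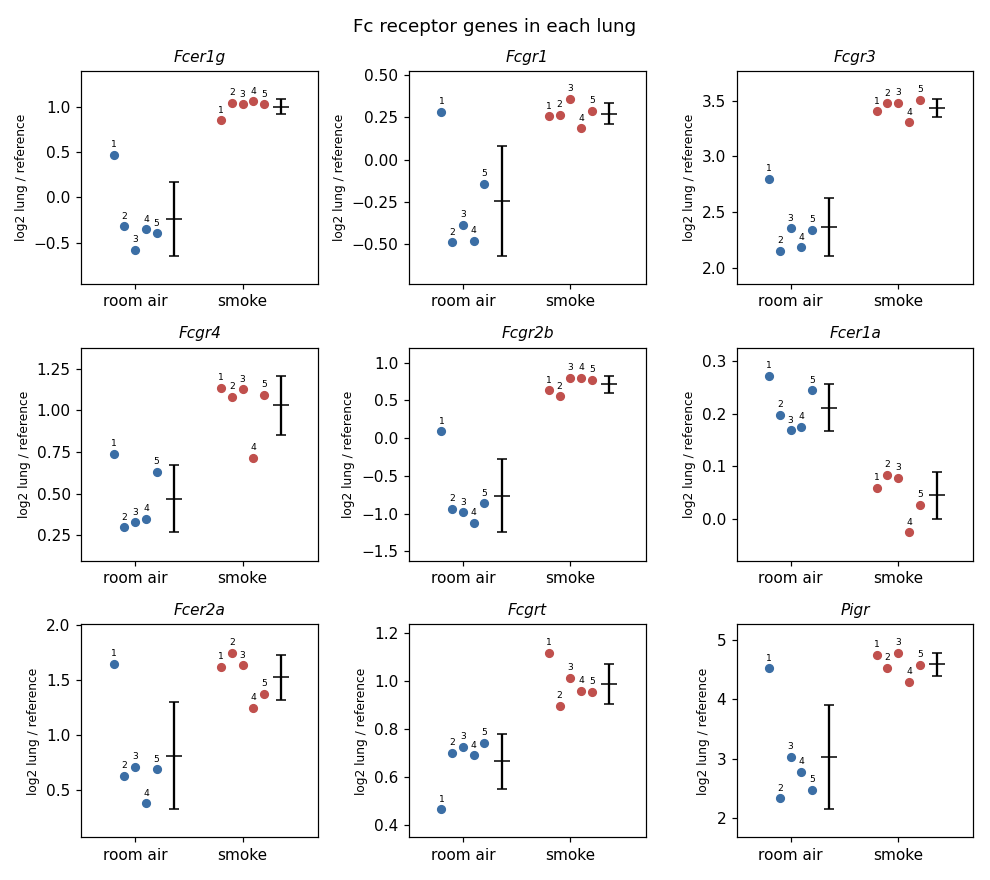
Log2 ratio of lung over reference RNA (vertical axis) for each of the 9 genes in the 5 room air lungs (blue) and the 5 smoke lungs (red), with replicate numbers and, at the right of each group, the mean and SD. Room air replicate 1 lies within the range of the smoke group for Fcgr1, Fcgr4, Fcer2a and Pigr, for Fcgr4 just above the lowest smoke lung. Fcer1a is the gene that is lower in all 5 smoke lungs.

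The common gamma chain gene Fcer1g was 2.36-fold higher with smoke. Its brighter probe, at chr1:171199756-171199815 of build mm7, read 0.47, -0.32, -0.58, -0.35 and -0.40 in room air replicates 1 to 5. The smoke lungs read 0.85, 1.04, 1.03, 1.06 and 1.03. All smoke lungs were above all room air lungs, and the smoke values were closely grouped except for replicate 1, the lowest. The difference was 1.24 ± 0.16 (SE), with an adjusted p of 0.000813, and 1.41 without room air replicate 1. A second probe gave 1.14 ± 0.14, adjusted p 0.000694.

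Fcgr3 encodes the low-affinity activating IgG receptor of macrophages and natural killer cells. Its brighter probe read 2.80, 2.16, 2.35, 2.19 and 2.34 in room air and 3.40, 3.47, 3.48, 3.30 and 3.51 in smoke. The groups did not overlap, and room air replicate 1 was again the highest of its group. The difference was 1.07 ± 0.11, adjusted p 0.000146, and 1.17 without that lung. Both channels were rebuilt from the normalised ratio and the normalised mean intensity. The reference channel of this probe, so rebuilt, was itself 0.49 higher on the smoke arrays. The rebuilt lung channel was 1.55 higher (1.65 with the red channel's processed signal), so the ratio gives the smaller difference. The other probe gave 1.37 ± 0.11, adjusted p 2.91e-05, with a reference channel difference of 0.09.

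Fcgr4 encodes an activating receptor for IgG2 subclasses. It read 0.74, 0.30, 0.33, 0.35 and 0.63 in room air and 1.13, 1.08, 1.13, 0.72 and 1.09 in smoke. The groups overlapped by a single pair, smoke replicate 4 lying just under room air replicate 1. The difference was 0.56 ± 0.11, a 1.48-fold rise, adjusted p 0.00804, and 0.63 without room air replicate 1.

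Fcgr1 encodes the high-affinity IgG receptor. Its brighter probe read 0.28, -0.49, -0.38, -0.48 and -0.14 in room air and 0.26, 0.27, 0.36, 0.19 and 0.29 in smoke. Room air replicate 1 lay within the smoke group and the other room air lungs lay below it. The difference was 0.51 ± 0.13, adjusted p 0.0357, but when 1 array at a time was left out it passed in 1 of 10 fits, that without room air replicate 1 (0.65, adjusted p 0.000257), and the adjusted p of the others reached 0.0898. The call was also lost with the scanner software's ratio (0.56, adjusted p 0.052) and with both settings of the red channel alone (0.58 and 0.50, adjusted p 0.15 and 0.0967). The second probe gave 0.39 ± 0.12, adjusted p 0.0718, which did not pass, and it passed with the replicate block (adjusted p 0.0138).

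The inhibitory receptor gene Fcgr2b was 2.78-fold higher with smoke. Its brightest probe, printed 10 times on each array, read 0.09, -0.93, -0.98, -1.12 and -0.86 in room air. In smoke it read 0.63, 0.55, 0.80, 0.80 and 0.78. Every smoke lung was above every room air lung, with room air replicate 1 well above the other room air lungs. The difference was 1.48 ± 0.19, adjusted p 0.0008, and 1.69 without room air replicate 1. The other probes gave 1.26 ± 0.15, adjusted p 0.000433, and 1.32 ± 0.15, adjusted p 0.000324. Fcgr2b and Fcgr3 are related in sequence, so the probe of each gene that lies farthest upstream is shown, with its place in build mm7 of the array design. Whether either probe also binds the other transcript was not tested.
Fcgr2b probe, chr1:170942178-170942237, strand -: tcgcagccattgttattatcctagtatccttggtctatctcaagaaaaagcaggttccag
Fcgr3 probe, chr1:171030474-171030533, strand -: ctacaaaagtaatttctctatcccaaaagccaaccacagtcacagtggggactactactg

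Fcer1a, the ligand-binding chain of the mast cell and basophil IgE receptor, read 0.27, 0.20, 0.17, 0.18 and 0.24 in room air and 0.06, 0.08, 0.08, -0.03 and 0.03 in smoke. All smoke lungs were below all room air lungs. The difference was -0.17 ± 0.04, adjusted p 0.0374, and without room air replicate 1 it was -0.15 and did not pass (adjusted p 0.0683). Its size depended on the processing: it was -0.64 (adjusted p 0.253) with the scanner software's ratio and -0.52 (adjusted p 0.541) with the red channel's processed signal, neither of which passed. The call was also lost without background correction (-0.13, adjusted p 0.127), with the red channel after quantile normalisation (-0.15, adjusted p 0.228), with ratios scaled between arrays (adjusted p 0.0531) and with dim probes left out (adjusted p 0.0602). When 1 array at a time was left out, it passed in 1 of 10 fits, narrowly, without room air replicate 4, and the adjusted p reached 0.0884. The reference channel was well above background on 2 room air and 4 smoke arrays. Among 8 mast cell or basophil markers, 1 passed, a share near the 8.23% of all genes. It was lower, the chymase gene Cma1 at -0.51 ± 0.14, adjusted p 0.048, and the median of the list was -0.13, and with the replicate block Hdc at -0.36 also passed (adjusted p 0.00373). Tpsab1 and Mcpt8 were well above background on fewer than 5 arrays, and the part of these markers in the Fcer1a value was not tested. In bulk lung, fewer cells of a type and less RNA per cell cannot be told apart.

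Fcer2a, the low-affinity IgE receptor of B cells, read 1.65, 0.63, 0.71, 0.38 and 0.69 in room air and 1.62, 1.75, 1.63, 1.25 and 1.37 in smoke. Room air replicate 1 lay within the smoke group, and the other room air lungs lay below all smoke lungs. The difference was 0.71 ± 0.20, with a 95% interval from 0.27 to 1.16 and an adjusted p of 0.0616, which did not pass. It passed with the slide as a replicate block (adjusted p 0.0173) and without room air replicate 1 (0.92, adjusted p 0.000292). It also passed with ratios scaled between arrays (0.78, adjusted p 0.0316), with dim probes left out (adjusted p 0.043) and without slide 1 (0.90, adjusted p 0.00146). Its size depended on the processing: it was 0.50 (adjusted p 0.185) with the scanner software's ratio and 1.47 (adjusted p 0.0847) with the red channel's processed signal, neither of which passed. The reference channel was well above background on 1 of 5 room air and 4 of 5 smoke arrays. Of 7 B cell markers, 1 was higher, against 4.96% of all genes, Cd22 at 0.85 ± 0.18, adjusted p 0.0136, and the others, Ms4a1 among them at 0.09, did not pass. The median of the list was 0.12. Their part in the Fcer2a value was not tested.

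Both transport receptors were higher with smoke. Fcgrt read 0.46, 0.70, 0.73, 0.69 and 0.74 in room air and 1.12, 0.90, 1.01, 0.96 and 0.95 in smoke. The groups did not overlap, and here room air replicate 1 was the lowest. The difference was 0.32 ± 0.06, a 1.25-fold rise, adjusted p 0.00994, and 0.27 without that lung. The call was lost with the scanner software's ratio (0.30, adjusted p 0.0605) and with both settings of the red channel alone (0.29 in each, adjusted p 0.189 and 0.129).

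Pigr read 4.52, 2.33, 3.03, 2.77 and 2.47 in room air and 4.74, 4.53, 4.78, 4.29 and 4.57 in smoke. The smoke lungs were alike, while room air replicate 1 lay among them and far above the other room air lungs. The difference was 1.56 ± 0.34, adjusted p 0.0177, and 1.93 without that lung. The reference channel of the Pigr probe was well above background on 2 of 5 room air and 5 of 5 smoke arrays. As rebuilt after normalisation, the reference channel was 0.77 higher with smoke and the lung channel 2.32 higher. With the scanner software's own ratio the Pigr difference was 0.08, adjusted p 0.941, and the cause was not tested. None of 6 secretory airway markers passed, with a median difference of 0.35, while with the replicate block Scgb3a1 (0.47, adjusted p 0.0383) and Muc5b (0.69, adjusted p 0.0474) did. In the rebuilt lung channel Scgb3a1, Bpifa1, Muc5b and Scgb3a2 differed by 1.89, 1.41, 0.83 and 0.59, and Scgb1a1 and Cyp2f2 by -0.17 and -0.31. For Scgb3a1 and Bpifa1 the rebuilt reference channel was itself 1.42 and 0.87 higher with smoke.

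Each slide held the smoke and the room air array of the same replicate number. The smoke array was always at place 1 and the room air array at place 2, so the place on the slide and the exposure cannot be told apart. The smoke lung was higher on all 5 slides in 6 members and lower on all 5 in Fcer1a. The share of all genes with either pattern was not counted, and nothing is read from these counts. For Fcer1g the differences within slides 1 to 5 were 0.38, 1.36, 1.60, 1.41 and 1.43. For Pigr they were 0.22, 2.20, 1.75, 1.51 and 2.10. Slide 1, which holds room air replicate 1, gave the smallest difference in both genes, and in Fcgr1 and Fcer2a it gave -0.03 and -0.03. With the slide as a block, 9 of 9 members passed, against 13.8% of all genes.

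**Figure D2:**
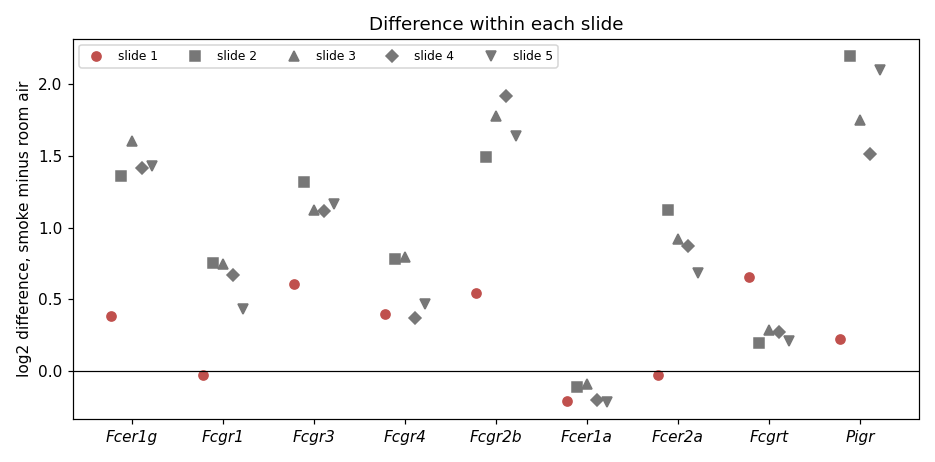
Log2 difference between the smoke and the room air lung of the same slide (vertical axis) for each gene, slide 1 in red and slides 2 to 5 in grey. Slide 1 gives the smallest difference for Fcer1g, Fcgr1, Fcgr3, Fcgr2b, Fcer2a and Pigr and the largest, 0.65, for Fcgrt.

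Over the 10 lungs, the genes whose log2 ratio followed Fcer1g most closely among 13909 genes were Lilrb4a, Gsdme, Csf2rb, Ptgir and Ly75, with Pearson r from 0.99 to 1.00. After subtracting each group's mean the same genes had r from 0.94 to 0.97. For Pigr they were Bcl2a1c, Vnn3, Hcar2, Il1r2 and Batf3, with r from 0.98 to 0.99, and from 0.94 to 0.97 after the group means were subtracted. These are descriptions over lungs that fall into 2 groups, and room air replicate 1 weighs on the values within groups. Among the 36 pairs of members, the 28 without Fcgrt had r from 0.48 to 0.94 after the group means were subtracted, and the 8 with Fcgrt had r from -0.88 to -0.27.

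Fcgr2b, Fcgr4, Fcgr3 and Fcer1g lie near each other on chromosome 1, their probes spanning 262.4 kb in build mm7. Of 30 other genes with probes there and up to 250 kb to each side, a window chosen after the member values were seen, 1 passed, against 8.23% of all genes, Arhgap30 at 0.58 ± 0.15, adjusted p 0.0356. The median difference of these 30 genes was -0.02. Fcrla, an Fc receptor-like gene next to Fcgr2b in this window, was at -0.06 ± 0.11, adjusted p 0.868. Of the 30, 7 were well above background on fewer than 5 arrays, 4 of them on none, so that 1 of the remaining 23 genes passed, and nothing is read from this count.

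**Figure D3:**
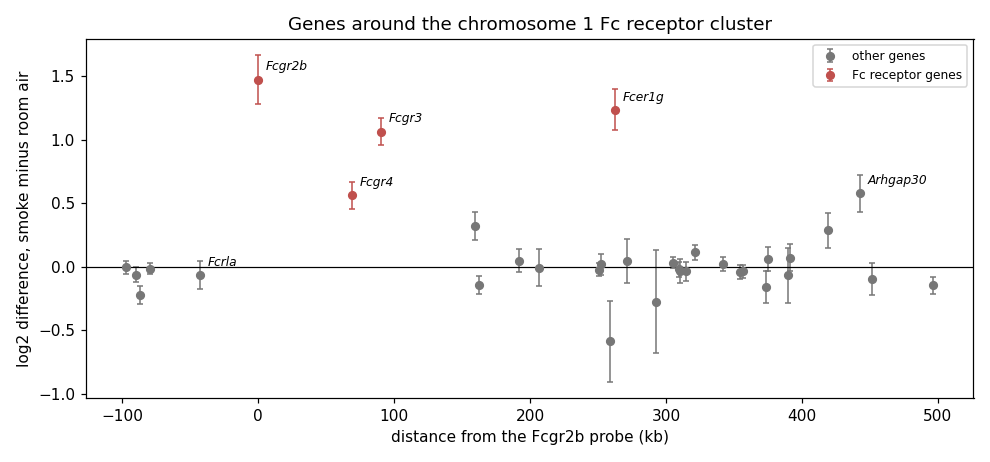
Log2 difference with its SE (vertical axis) of each gene around the chromosome 1 cluster against the distance of its probe from the Fcgr2b probe in kb (horizontal axis), Fc receptor genes in red and others in grey. The 4 receptor genes lie from 0.56 to 1.48, and of the others Arhgap30 alone passed.

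The promoters of all members were searched for GAGGAA, the core bound by the myeloid factor PU.1, on both strands. RefSeq promoter entries of GRCm38.p6 were found for 9 of 9 members. The letters occurred in 4 members, Fcgr1, Fcgr3, Fcgr4 and Fcer1a. Some members have more than 1 entry, and the letters were in 5 of 12 member entries and in 28.3% of all 32851 promoter entries of the same 300 bases. The Fcgr3 entries overlap and hold the same occurrence, which is thus counted more than once. The share of all genes with the letters in an entry was not counted, and nothing is read from these counts. The entries of Fcer1g and Fcgr2b do not hold the letters. The promoters of the activating IgG receptors, where the motif lies on the other strand, and that of Fcer1g are shown, with the motif in capitals, while in the Fcer1a entry, not shown, it lies as written. A match is a description and not a binding site.
Fcgr1 promoter, chr3:96293920-96294219, strand -: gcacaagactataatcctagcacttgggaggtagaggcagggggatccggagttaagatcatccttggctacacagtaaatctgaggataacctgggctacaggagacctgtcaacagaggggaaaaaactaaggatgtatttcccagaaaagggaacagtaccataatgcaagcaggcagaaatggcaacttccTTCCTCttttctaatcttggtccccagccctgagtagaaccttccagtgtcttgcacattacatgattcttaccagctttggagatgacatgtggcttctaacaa
Fcgr3 promoter, chr1:171059345-171059644, strand -: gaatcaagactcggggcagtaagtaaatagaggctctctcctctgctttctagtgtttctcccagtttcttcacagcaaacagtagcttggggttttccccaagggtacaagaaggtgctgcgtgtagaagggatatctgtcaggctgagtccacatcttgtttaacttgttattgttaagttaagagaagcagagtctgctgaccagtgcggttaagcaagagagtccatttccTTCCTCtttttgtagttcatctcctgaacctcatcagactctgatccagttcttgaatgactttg
Fcgr4 promoter, chr1:171018676-171018975, strand +: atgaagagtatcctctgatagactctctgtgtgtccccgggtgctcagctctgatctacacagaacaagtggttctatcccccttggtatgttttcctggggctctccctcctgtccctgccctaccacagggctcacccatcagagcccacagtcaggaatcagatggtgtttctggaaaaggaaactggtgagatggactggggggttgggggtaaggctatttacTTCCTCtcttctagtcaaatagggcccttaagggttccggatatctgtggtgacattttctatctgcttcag
Fcer1g promoter, chr1:171234300-171234599, strand -: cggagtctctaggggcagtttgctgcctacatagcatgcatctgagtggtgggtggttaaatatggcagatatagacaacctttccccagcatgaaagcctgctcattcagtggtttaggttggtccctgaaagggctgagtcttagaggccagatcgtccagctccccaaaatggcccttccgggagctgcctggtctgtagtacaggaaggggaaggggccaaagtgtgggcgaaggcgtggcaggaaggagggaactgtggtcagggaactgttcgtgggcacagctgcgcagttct

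Lists of signalling and partner genes were drawn up from general knowledge, with earlier results of these data known. Their counts are therefore descriptions and not tests. The lists are not particular to Fc receptors, and whether genes such as Pik3r5 and Tyrobp act with these receptors here was not tested. Of 22 activating signalling genes measured, 10 were higher and none was lower, against 4.96% higher and 3.27% lower of all genes, with a median difference of 0.46. The adaptor gene Lat2 was at 0.99 ± 0.11 (adjusted p 0.000288), the signalling chain Tyrobp at 0.96 ± 0.08 (adjusted p 4.2e-05), and the phosphoinositide 3-kinase subunit Pik3r5 at 1.08 ± 0.12 (adjusted p 0.000231). Vav1 was at 0.78 ± 0.13 (adjusted p 0.00335), Syk at 0.69 ± 0.16 (adjusted p 0.0216) and Btk at 0.68 ± 0.17 (adjusted p 0.0309). With the replicate block Malt1 passed too, at 0.72 (adjusted p 0.0413). For Syk, Btk and Malt1 the groups overlapped, and for Lat2, Tyrobp, Pik3r5 and Vav1 every smoke lung was above every room air lung.

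Of 9 inhibitory signalling genes, 1 passed, a share near the 8.23% of all genes, so the count does not set this list apart. It was the phosphatase gene Ptpn6 at 0.81 ± 0.09, adjusted p 0.000221. Inpp5d, the lipid phosphatase recruited by the inhibitory receptor, was at 0.16 ± 0.07, adjusted p 0.248. Ptpn11, Dok1, Dok2, Cbl, Cblb, Csk and Pag1 lay between -0.19 and 0.32 and did not pass, and the median of the list was 0.095, or 0.047 without room air replicate 1. With the replicate block Ptpn11 also passed, at -0.19 (adjusted p 0.0275). Of 6 other receptors that pair with the gamma chain, 1 passed, against 8.23% of all genes. Clec4n rose by 1.80 ± 0.27 (adjusted p 0.00173), while Clec4d at 1.44 ± 0.45 (adjusted p 0.0874), Clec4e, Oscar, Gp6 and Ncr1 did not pass, and the median was 0.15, or 0.45 without room air replicate 1. Clec4d passed with the replicate block (adjusted p 0.038).

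Among 8 other Fc receptor family and partner genes, 1 passed, a share near the 8.23% of all genes, which does not set this list apart either. It was Fcamr, a receptor for IgA and IgM, higher at 0.39 ± 0.08, adjusted p 0.0127, and Ms4a2, Fcmr, Fcrla, Fcrl1, Fcrl5, Trim21 and B2m did not pass. The reference channel of the Fcamr probe was well above background on 0 of 5 room air and 2 of 5 smoke arrays, which limits its ratio. The rebuilt lung channel was 0.54 higher for Fcamr. The median of this list was 0.0043, or -0.0019 without room air replicate 1, and Ms4a2 and Fcrl5 were well above background on 2 and 1 of 10 arrays. The antibody genes measured, Ighm, Ighg1 and Jchain, were at 0.18, 0.65 and 0.49 and did not pass, though Ighg1 did with the replicate block (adjusted p 0.0169).

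**Figure D4:**
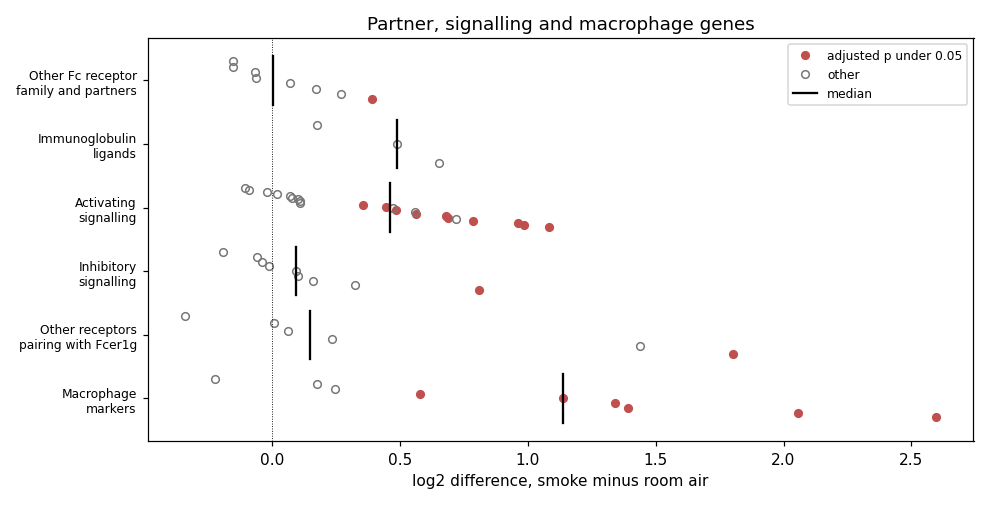
Log2 difference between smoke and room air (horizontal axis) of each measured gene of 6 lists, filled where the adjusted p was under 0.05, with the median of each list as a bar. Activating signalling genes lie mostly above 0, and the median of the macrophage markers is 1.14.

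Macrophages express most of the members. Of 9 macrophage markers, 6 were higher and none was lower, against 4.96% higher and 3.27% lower of all genes, with a median difference of 1.14. The marker lists too were chosen with earlier results of these data known, so these counts are descriptions and not tests. The mean log2 ratio over the list was 2.23, 2.08, 2.13, 2.01 and 2.07 in room air and 3.12, 3.18, 3.24, 3.09 and 3.06 in smoke. Cd68 was at 2.06 ± 0.06 and Marco at 2.60 ± 0.41, Adgre1, Itgax, Mrc1 and Csf1r were at 1.39, 1.34, 1.14 and 0.58, while Siglecf at 0.25, Lyz2 at 0.18 and Mertk at -0.22 did not pass. Room air replicate 1 was the highest room air lung in this mean too, but all smoke lungs lay well above it. All 9 markers were well above background in the lung channel on all 10 arrays, and their part in the member differences was not tested. In the reference channel Siglecf was well above background on 0 arrays and Mrc1 on 1 array of each group, which limits these ratios. Of the remaining marker lists, to be read against the same shares of all genes, 1 of 4 monocyte (Cx3cr1, 0.89) and 1 of 9 neutrophil markers (Camp, 0.60) were higher, 1 of 6 natural killer cell (Prf1, -0.64) and 1 of 5 endothelial markers (Pecam1, -0.41) were lower, and no alveolar type 2, lung identity, erythroid or T cell marker passed. With the replicate block, Itgam (0.51, adjusted p 0.0312) and Cd3g (0.43, adjusted p 0.00539) passed as higher and Mertk (-0.22, adjusted p 0.0351) and Tek (-0.24, adjusted p 0.0159) as lower.

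**Figure D5:**
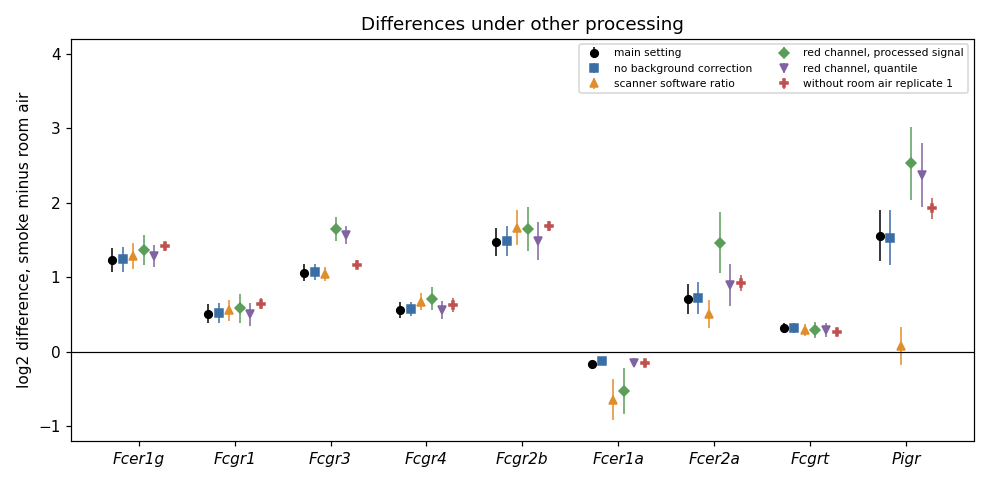
Log2 difference with its SE (vertical axis) of each gene under 6 ways of processing (symbols). Directions were the same in all 6, and Pigr ranged from 0.08 with the scanner software's ratio to 2.53 with the lung channel's processed signal.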

How the data were processed

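Lung RNA of 5 room air and 5 smoke mice was hybridised with a reference RNA to 2-colour Agilent arrays. The deposited scanner files hold spot and background intensity per channel and, per the file headers, the log10 ratio of red over green made by Feature Extraction 9.5.3.1, while the labels name version 9.1 and a 1-colour kit. A further deposited table holds log2 values, each the mean of both channels after background subtraction, and its columns equal the arrays that the scanner files give to the other group, so it served as an alternative. Its scale and centring between arrays are not stated.

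Intensities were background-corrected (normexp, offset 50), loess-normalised within arrays and averaged over spots of a probe, control and outlier spots left out, with limma 3.58.1 in R 4.3.3. The log2 ratio was fitted with lmFit and eBayes, 2-sided, and p-values were adjusted by Benjamini-Hochberg over 41173 probes. A gene was read by its probe with the brightest red signal. Rebuilt lung and reference channels were made from the loess-normalised ratio and the mean log2 intensity, the latter quantile-normalised between arrays. They are not raw channel signals, and the settings of the red channel alone were computed apart from them. Probes were named through RefSeq accessions (22951), symbols (6659) or synonyms (3109), and 8455 kept the file's name. All members are described in every probe. Genes of the pathway lists are named where a list had at most 12 measured genes, otherwise the 6 with the largest difference past the threshold. Marker lists are given by counts, with the markers that passed and some others named, and genes whose call changed with the block are named too. Members and lists were chosen with earlier results of these data known. The scripts were tested on simulated data.

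Slides held both arrays of a replicate number, and deviations from the group means correlated within every number (r from 0.16 to 0.55, against a median of -0.12 between numbers), so an alternative fit took the slide as a block. For number 1 the correlation of 0.16 was below the highest with another number, 0.21. The 5 slides were scanned on 4 days. Other alternatives were an exact Wilcoxon test, other background correction, channels and scaling, filters, and leaving out arrays. Leaving out slide 1 was chosen after seeing the data.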

Additional observations from a re-analysis of the deposited data

Results flagged for a closer look

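In 7 of 28 sets of 5 arrays, 1 lung lay far from the other 4, where chance flags about 1 in 20 sets. The sets share lungs and some share a gene, so they are not independent. Room air replicate 1 was the highest of its group for both Fcer1g probes (0.47 and 0.47), Fcgr2b (0.093) and Fcer2a (1.65), and the lowest for Fcgrt (0.46). Smoke replicate 1 was the lowest smoke lung for the brighter Fcer1g probe (0.85), and smoke replicate 4 for Fcgr4 (0.72). The cause was not tested.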

How the results depend on the processing

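The 9 members kept their direction in every alternative but the deposited table. There, with columns as labelled, which equal the arrays the scanner files give to the other group, 13 probes and 0 members passed in limma (764 probes and 3 members at an unadjusted p under 0.05), the median member difference was -0.25, and Fcer1g (-0.63), Fcgr1 (-0.20), Fcgr2b (-0.73), Fcgr3 (-1.02), Fcgr4 (-0.25), Fcgrt (-0.061) and Pigr (-1.51) reversed, while Fcer2a (0.42) and Fcer1a (-0.16) kept their sign, which would turn against the main fit if the columns were exchanged. Which assignment is right was not tested. With the replicate block, 5019 probes passed against 2906 without it, and 9 members against 8; the block changed no other member call than those of Fcer2a and the second Fcgr1 probe. The exact Wilcoxon test passed 0 probes and 0 members after adjustment, with 5446 and 7 at an unadjusted p under 0.05, since its smallest p of 0.00794 became 0.115. The scanner software ratio passed 2575 probes and 4 members (median 0.56), the red channel's processed signal 1759 probes and 5 members (median 1.36), and the red channel after quantile normalisation 2329 probes and 5 members (median 0.90). A fold change over 2 left 215 probes and 4 members. Leaving out 1 array gave 2102 to 3660 probes (the latter without room air replicate 1), 6 to 8 members and a median difference of 0.60 to 0.92, and leaving out slide 1 gave a median of 0.90. The causes were not tested. Fcer1g, Fcgr2b, Fcgr3 and Fcgr4 passed in 20 of their 22 fits, the main one included, Pigr in 19, Fcgrt in 17, Fcgr1 in 8, Fcer2a in 5 and Fcer1a in 4. The probes of Fcer1a, Fcer2a and Pigr were dim in the reference channel, which limits their ratios. The same limit holds for some list genes, among them Fcamr, Camp, Prf1, Cd22, Siglecf and Mrc1.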
